A study of Mus musculus with 12 samples.

Results

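The genes that flank Cort on mouse chromosome 4 were followed in brain endothelial cells (BECs) that carry or lack cortistatin. The 55 members were given by symbol, as genes within about 10 Mb of Cort. They make up 55 of the 32419 genes listed in the deposited tables, and 55 of the 350 genes other than Cort that have a position within 10 Mb of it (GENCODE vM21 on GRCm38). Cort itself lies at chr4:149125034-149126763 on the minus strand, 7.23 Mb from the end of the last annotated gene of the chromosome. On the centromeric side 23 members reach out to Efhd2 at 7.25 Mb, and the others lie on the telomeric side as far as Nphp4 at 3.35 Mb.

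Primary BECs were grown from Cort+/+ and Cort-/- C57BL/6 mice, and each replicate was a pool from 3 mice. The Cort-/- line was kept as hemizygotes on a C57BL/6J background. Under NX/NG, normal oxygen and glucose, cells spent 24 h at 21% O2. In OGD-R they spent 4 h at 1% O2 without glucose and then 20 h with both restored, an in vitro form of stroke. The labels name a middle cerebral artery occlusion (MCAO) model in every group, while the methods describe this treatment of cultured cells. Each environment had 3 Cort+/+ and 2 Cort-/- libraries with data columns, 10 in all. The third Cort-/- replicate grown under NX/NG and the second kept under OGD-R were not analysed here.

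Cortistatin is a neuropeptide close to somatostatin, and it signals through somatostatin receptors. When a gene is inactivated by targeting, DNA on either side of it is inherited with the altered allele, and backcrossing removes the linked part last. In a comparison of a knockout line with a wild-type line, the lost gene and any difference in the neighbouring DNA therefore go together and cannot be told apart by expression. Whether the Cort-/- line carries other-strain DNA near Cort was not tested, since the tables hold no genotypes.

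The reads on genes recovered from the deposited values summed to between 12386048 and 12390428 per library. The paper gives a larger mean number of paired-end reads. Expression is given as RPKM, the reads on a gene scaled to its length and to a library size, by the authors and apart for each environment. That size was not the total of reads alone. In Cort+/+ NX/NG libraries, 2214 reads on Pgd were 28.0 RPKM in replicate 1 and 26.1 RPKM in replicate 2. Cort was near the limit of detection in both genotypes. Under NX/NG the Cort+/+ libraries held 2, 1 and 1 of its reads, those after OGD-R 0, 0 and 1, and every Cort-/- library 0, so no fold is given. The endothelial markers Cldn5, Pecam1, Tjp1, Cdh5 and Kdr summed to between 782 and 1223 RPKM in every library. Ribosomal RNA (18S) took 0.0951% of the reads in 1 Cort-/- library after OGD-R (replicate 3) and 0.0775% in 1 Cort+/+ library (replicate 1), against 7.64% to 15.8% in the other 8 libraries.

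Among the flanking genes, Pdpn, Tnfrsf1b, Miip and Fbxo44 were lower and Zfp990, Dffa and Clstn1 higher in Cort-/- BECs in both environments, each with no overlap between the genotypes. Pdpn encodes podoplanin, a membrane glycoprotein of lymphatic endothelium and stromal cells. Tnfrsf1b encodes the second receptor for tumour necrosis factor (TNF). Pdpn was 5.53-fold lower under NX/NG and 5.94-fold lower after OGD-R, while most other neighbours of Cort differed little. Across the members, 39 of 54 under NX/NG and 37 of 55 after OGD-R had a log2 fold change (log2FC) under 0.25 in size. The median size was 0.11 and 0.15, beside 0.20 and 0.18 over all genes.

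With limma on log2(RPKM + 0.1), no gene of either table passed a false discovery rate (FDR) of 0.05, members included. At an unadjusted p under 0.05 stood 10 of 54 members under NX/NG (18.5%), where 8.39% of all 29965 genes did. Of these members 4 were higher and 6 lower in Cort-/- BECs, against 3.56% and 4.82% of all genes. After OGD-R these were 12 of 55 (21.8%), where 3.42% of all 29775 genes did, with 4 members higher and 8 lower, against 1.72% and 1.71% of all genes. Without both libraries low in ribosomal RNA the second count was 7 of 55, where 11.1% of all genes stood at that p. Since the members are a choice among the genes near Cort, these shares are a description. The genotypes did not overlap for 23 members under NX/NG (42.6%, against 23.2% of all genes) and for 20 after OGD-R (36.4%, against 14.3%). The median log2FC of the members was -0.03 and -0.04, beside -0.01 over all genes in each environment. With genes at the read floor (no library of a genotype above 3 reads) set at their bounds, these medians were -0.03 and -0.01. Limma-voom on the recovered reads called Pdpn, Tnfrsf1b and Zfp990 in both environments, out of 124 genes under NX/NG (0.414%) and 5 after OGD-R (0.0168%), and 0.0183% of the genes in both tables were called in each.

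**Figure D1:**
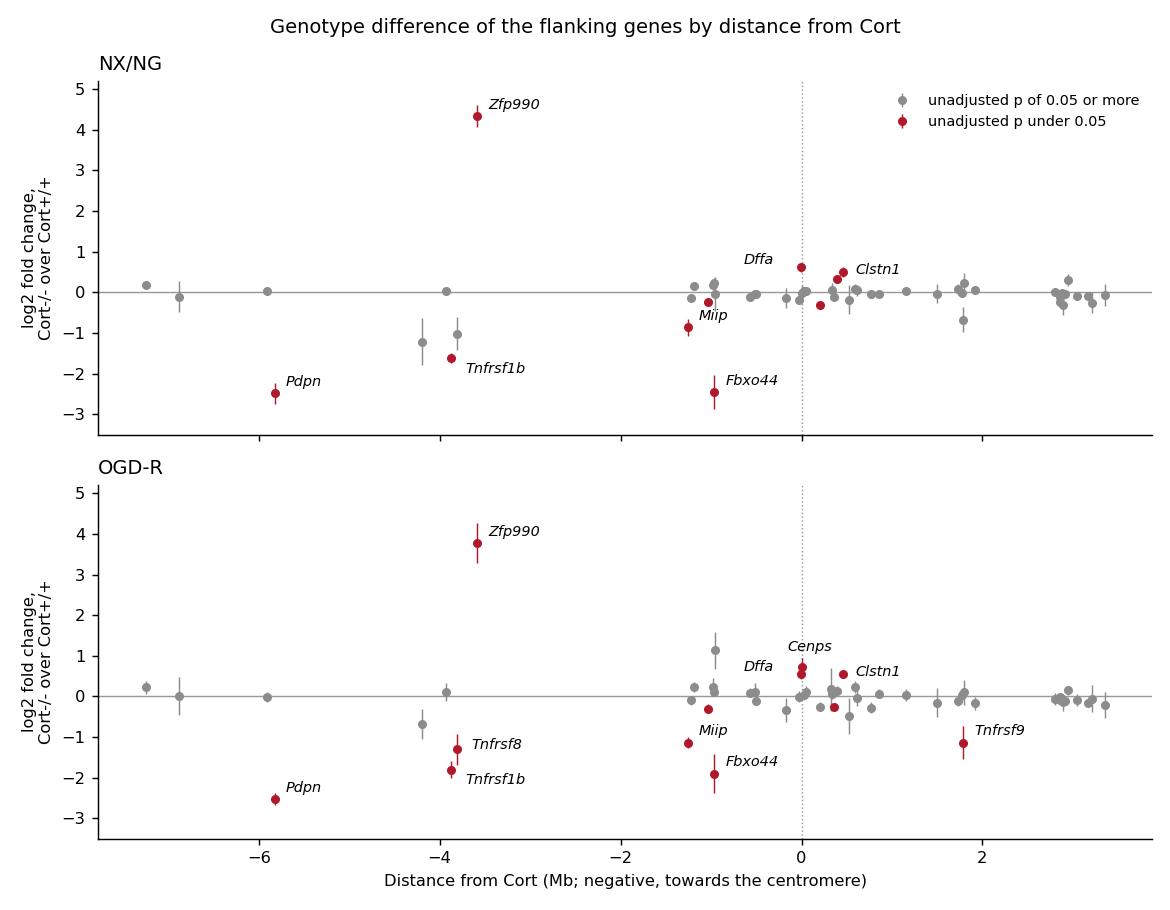
Log2FC of each flanking gene (Cort-/- over Cort+/+, limma, vertical axis; bars, standard error) against its distance from Cort in Mb (horizontal axis) under NX/NG (top, 54 genes) and OGD-R (bottom, 55 genes), with genes at an unadjusted p under 0.05 in red. Pdpn, Tnfrsf1b, Miip and Fbxo44 lie below 0 and Zfp990, Dffa and Clstn1 above it in both panels, while most points lie near 0. The height of Zfp990 depends on the pseudocount, because its Cort+/+ values are at or near 0.

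The start regions of 5 of these genes are shown because the members that differ most sit beside relatives or neighbours that differ less, or the other way. RefSeq promoter windows (GRCm38.p6, 250 bases before to 50 after a start) were matched by symbol for 49 of the 55 members, the others being Dnajc11, Slc45a1, Vamp3, Zbtb48, Prdm2 and Zfp990. Capitals mark the TATA box TATAAA, the core of a GC box as GGGCGG, the E-box CACGTG and the box CCAAT, on either strand, and no marked motifs overlap in these windows. Of all 32851 windows, 13.6% hold TATAAA, 35.7% GGGCGG, 7.15% CACGTG and 37.4% CCAAT. Pdpn (chr4:143299515-143299814), Tnfrsf1b (chr4:145246821-145247120), Tnfrsf8 (chr4:145315115-145315414) and the outermost Fbxo44 window (chr4:148160045-148160344) are on the minus strand, and Fbxo2 (chr4:148160418-148160717) is on the plus strand.
Pdpn: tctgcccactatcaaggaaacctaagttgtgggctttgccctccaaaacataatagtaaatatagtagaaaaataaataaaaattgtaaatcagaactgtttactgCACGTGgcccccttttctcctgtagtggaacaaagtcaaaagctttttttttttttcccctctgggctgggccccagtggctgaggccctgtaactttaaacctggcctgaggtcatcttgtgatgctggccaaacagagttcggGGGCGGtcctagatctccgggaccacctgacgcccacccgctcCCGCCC
Tnfrsf1b: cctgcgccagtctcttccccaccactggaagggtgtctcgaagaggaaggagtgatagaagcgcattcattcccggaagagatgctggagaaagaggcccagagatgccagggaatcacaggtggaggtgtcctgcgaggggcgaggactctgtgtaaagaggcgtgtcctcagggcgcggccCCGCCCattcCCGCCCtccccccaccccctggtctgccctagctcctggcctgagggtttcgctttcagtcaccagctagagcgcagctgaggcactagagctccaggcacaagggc
Tnfrsf8: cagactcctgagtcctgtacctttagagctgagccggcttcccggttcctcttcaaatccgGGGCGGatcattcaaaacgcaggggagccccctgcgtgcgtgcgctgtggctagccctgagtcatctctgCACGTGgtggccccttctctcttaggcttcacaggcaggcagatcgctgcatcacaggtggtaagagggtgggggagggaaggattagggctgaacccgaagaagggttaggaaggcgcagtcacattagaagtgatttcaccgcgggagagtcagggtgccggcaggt
Fbxo44: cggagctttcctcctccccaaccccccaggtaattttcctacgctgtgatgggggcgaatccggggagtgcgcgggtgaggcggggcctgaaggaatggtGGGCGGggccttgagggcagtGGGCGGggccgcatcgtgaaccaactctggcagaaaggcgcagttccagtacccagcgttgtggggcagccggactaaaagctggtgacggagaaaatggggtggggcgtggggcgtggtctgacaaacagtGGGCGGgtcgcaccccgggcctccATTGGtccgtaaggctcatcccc
Fbxo2: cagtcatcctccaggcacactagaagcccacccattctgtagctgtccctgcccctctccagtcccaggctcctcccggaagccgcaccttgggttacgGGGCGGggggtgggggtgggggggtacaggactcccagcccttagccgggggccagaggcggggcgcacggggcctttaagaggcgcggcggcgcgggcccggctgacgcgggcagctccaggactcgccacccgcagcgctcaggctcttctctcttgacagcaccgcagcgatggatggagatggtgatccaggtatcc
None of the 5 windows holds TATAAA, and GGGCGG occurs in each of them, 3 times in that of Fbxo44. CACGTG occurs in the windows of Pdpn and Tnfrsf8. These letters are a description of the sequence and mark no proven site.

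The TNF receptor superfamily members and Pdpn, 4 genes in all, were lower in Cort-/- BECs in both environments, each without overlap. At an unadjusted p under 0.05 stood 2 of the 4 under NX/NG and 4 of the 4 after OGD-R, where 8.39% and 3.42% of all genes did. The 4 include Tnfrsf9, which had 1 read in sum in Cort-/- BECs after OGD-R. Pdpn (chr4:143267431-143299564, minus strand, 5.82 Mb from Cort) measured 4.59 and 2.60 RPKM in the Cort-/- NX/NG libraries and 23.0, 18.1 and 18.4 RPKM in the Cort+/+ ones. After OGD-R it measured 3.66 and 3.95 RPKM in Cort-/- and 20.6, 20.5 and 26.8 RPKM in Cort+/+ BECs. In each environment both Cort-/- libraries were thus far below all 3 Cort+/+ libraries. The log2FC was -2.48 (SE 0.26, limma FDR = 0.108, limma-voom FDR = 0.00336) under NX/NG and -2.53 (SE 0.15, limma FDR = 0.148, limma-voom FDR = 0.000234) after OGD-R.

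Pdpn also marks fibroblasts and lymphatic endothelium, and some markers of both moved with genotype. The 6 fibroblast markers (Col1a1, Col1a2, Col3a1, Dcn, Lum, Pdgfra) summed to 83.5 to 121 RPKM in Cort-/- and 193 to 279 RPKM in Cort+/+ BECs under NX/NG. There 3 of 6 were lower at an unadjusted p under 0.05, Col1a1 (log2FC -1.35), Col1a2 (-1.41) and Col3a1 (-1.04). Dcn stood at -0.42 under NX/NG, while Lum (0.15) and Pdgfra (0.66) went the other way. After OGD-R the sums overlapped, 200 to 252 RPKM in Cort-/- against 231 to 342 RPKM in Cort+/+, and 2 of 6 were lower. After OGD-R the log2FC was -0.61 for Col3a1 and -0.85 for Lum, the 2 lower ones, -0.43 for Col1a1, -0.54 for Dcn, -0.16 for Pdgfra and 0.04 for Col1a2. Of the fibroblast markers, Lum did not exceed 0.149 RPKM and Pdgfra did not exceed 0.706 RPKM in any library. The sum of the lymphatic markers listed (Prox1, Lyve1, Flt4) was higher, from 14.6 to 17.2 RPKM in Cort+/+ up to 20.3 to 20.7 RPKM in Cort-/- under NX/NG. After OGD-R it went from 15.2 to 16.5 up to 18.9 to 20.1 RPKM. At an unadjusted p under 0.05, 2 and 1 of the 3 were higher. The sums were higher through Flt4 and Lyve1, while Prox1, the defining one, was at most 0.0778 RPKM, with a log2FC of -0.19 and -0.26. In bulk RNA, fewer cells of a type and less RNA per cell cannot be told apart, and the part of these cells in the Pdpn result was not tested.

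Tnfrsf1b (chr4:145213463-145246870, minus strand, 3.88 Mb from Cort) measured 2.69 and 3.09 RPKM in Cort-/- and 8.76, 8.31 and 10.2 RPKM in Cort+/+ BECs under NX/NG. Its values after OGD-R were 3.93 and 2.65 RPKM in Cort-/- and 10.1, 11.0 and 13.7 RPKM in Cort+/+ BECs. The groups were separated by a wide gap in both environments, with a log2FC of -1.62 (SE 0.12, limma FDR = 0.0803, limma-voom FDR = 0.00262) and -1.80 (SE 0.22, limma FDR = 0.231, limma-voom FDR = 0.00362). Macrophages and microglia also carry this receptor. Their markers Ptprc, Itgam, Csf1r and Cd68 summed to 3.68 to 3.77 RPKM in Cort-/- and 2.31 to 2.88 RPKM in Cort+/+ BECs under NX/NG. These sums came from Cd68 (log2FC 0.68) and Csf1r (0.23). Ptprc (0.07) and Itgam (-0.07) were at most 0.0133 and 0.0162 RPKM under NX/NG. After OGD-R the sums were 2.97 to 3.30 RPKM in Cort-/- against 2.91 to 4.19 RPKM in Cort+/+ BECs. The part of these cells in the Tnfrsf1b result was not tested.

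Tnfrsf8, which encodes the lymphocyte activation receptor CD30, ends 20.3 kb from Tnfrsf1b on the same strand. It measured 1.99 and 2.09 RPKM in Cort-/- and 4.08, 2.64 and 6.94 RPKM in Cort+/+ BECs under NX/NG. After OGD-R the values were 2.32 and 1.29 RPKM in Cort-/- and 2.90, 5.08 and 5.78 RPKM in Cort+/+ BECs. The groups did not overlap, but the lowest Cort+/+ library lay close to the Cort-/- ones each time, and the log2FC was -1.01 (SE 0.40, limma FDR = 0.608) and -1.30 (SE 0.38, limma FDR = 0.978).

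Tnfrsf9, the costimulatory receptor 4-1BB, lies 1.79 Mb away on the telomeric side and was barely detected. It had 2 and 1 reads in Cort-/- and 4, 3 and 6 in Cort+/+ BECs under NX/NG, a ratio per library of 2.94 (95% exact interval 0.808 to 16.1). After OGD-R it had 0 and 1 reads in Cort-/- and 8, 6 and 2 in Cort+/+ BECs, a ratio of 11.0 (95% exact interval 1.71 to 463). These intervals cover counting error only, and the first of them includes equal levels.

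Zfp990, which encodes a zinc finger protein, was the member with the largest ratio between genotypes. It lies at chr4:145510759-145539188 on the plus strand, 196 kb from Tnfrsf8 and 3.59 Mb from Cort. Its reads numbered 81 and 88 in Cort-/- and 0 in each of the 3 Cort+/+ libraries under NX/NG. After OGD-R they numbered 99 and 49 in Cort-/- and 0, 2 and 1 in Cort+/+ BECs. Its transcript was thus seen almost only in Cort-/- libraries, at 1.88 and 1.98 RPKM under NX/NG and at 2.41 and 1.03 RPKM after OGD-R. Against a floor of 3 reads per library, Zfp990 was at least 28.2-fold higher in Cort-/- BECs under NX/NG and at least 24.1-fold higher after OGD-R. From the read counts, the 95% exact interval of the ratio had a lower limit of 66.8 and no upper limit under NX/NG. After OGD-R the read ratio was 71.5 (95% exact interval 24 to 351). These intervals cover counting error only. The FDR was 0.0803 by limma and 0.000362 by limma-voom under NX/NG, and 0.257 and 0.0148 after OGD-R. Of the 40-nt words of its transcripts, 39.0% also occur in other genes, most often in Zfp987 (17.8%), so the gene from which these reads came is uncertain.

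**Figure D2:**
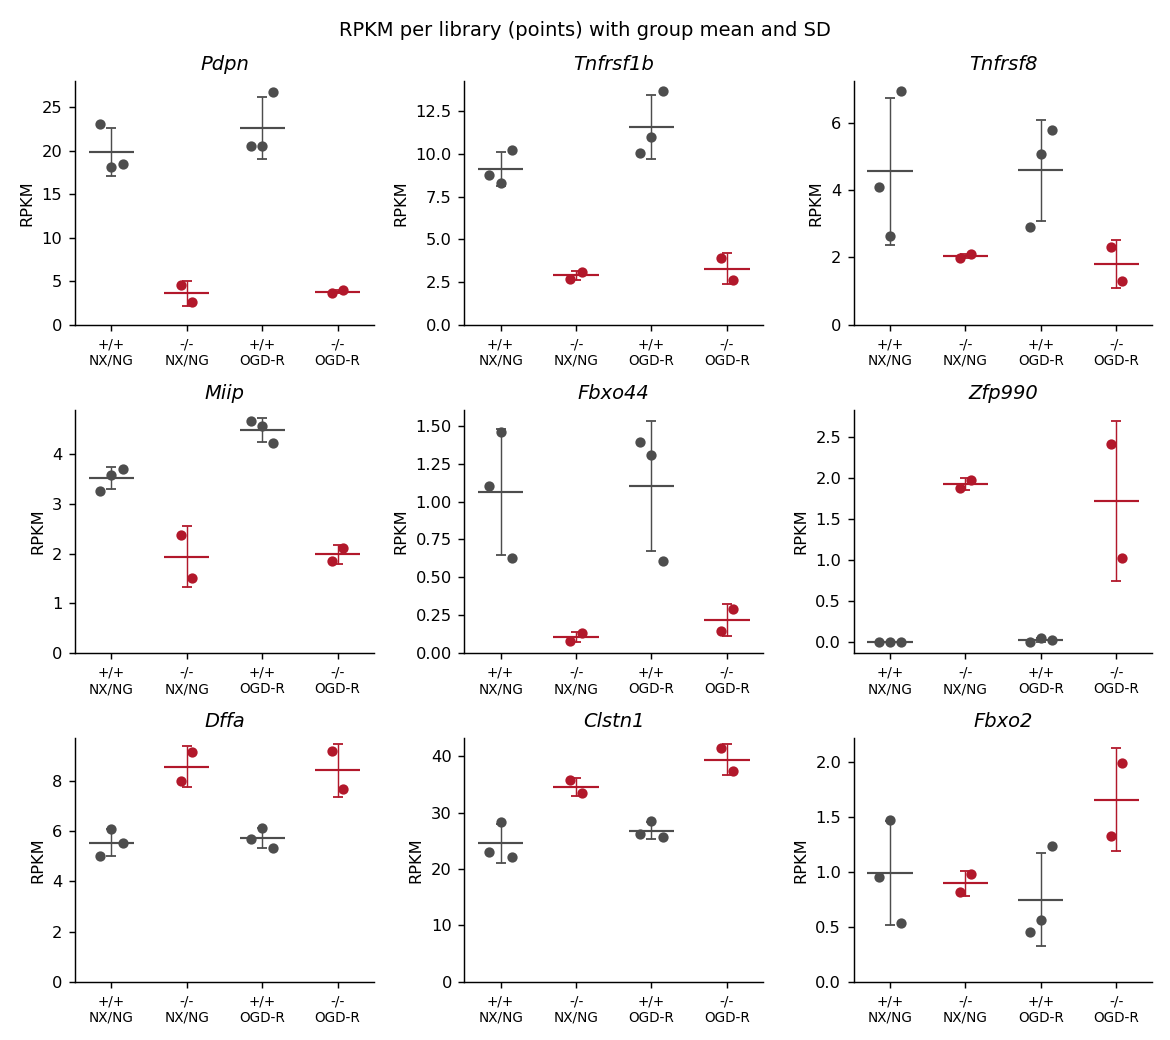
RPKM (vertical axes, each from 0) of 9 flanking genes in every library (points), with the group mean (horizontal line) and SD (bars), for Cort+/+ (grey, n = 3) and Cort-/- (red, n = 2) BECs in each environment. The genotypes are apart in both environments for 8 of these genes, and they overlap for Fbxo2 under NX/NG, where Cort-/- libraries at 0.817 and 0.977 RPKM lie within the Cort+/+ range.

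The 6 members that act in ubiquitin ligases include Fbxo44, Fbxo2 and Fbxo6, F-box proteins that choose the targets of such complexes. At an unadjusted p under 0.05 stood 2 of the 6 under NX/NG and 1 after OGD-R, all lower, beside 8.39% and 3.42% of all genes. Fbxo44 (chr4:148152800-148160482, minus strand) starts 138 bases from Fbxo2, which is read in the opposite direction. Fbxo44 measured 0.0803 and 0.130 RPKM in Cort-/- and 1.11, 1.46 and 0.631 RPKM in Cort+/+ BECs under NX/NG. After OGD-R it measured 0.141 and 0.291 RPKM in Cort-/- and 1.40, 1.31 and 0.609 RPKM in Cort+/+ BECs. Every Cort-/- value lay below every Cort+/+ value, and the Cort-/- libraries had 8 reads in sum under NX/NG and 17 after OGD-R. The log2FC was -2.45 (SE 0.42, limma FDR = 0.247) and -1.90 (SE 0.48, limma FDR = 0.842).

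Its neighbour Fbxo2 was not lower. Fbxo2 measured 0.817 and 0.977 RPKM in Cort-/- and 0.95, 1.48 and 0.538 RPKM in Cort+/+ BECs under NX/NG, with overlapping groups (log2FC -0.04, SE 0.42). Its values after OGD-R were 1.32 and 1.99 RPKM in Cort-/- and 0.452, 0.559 and 1.23 RPKM in Cort+/+ BECs, higher without overlap (log2FC 1.13, SE 0.46, limma FDR = 0.978). Fbxo6, on the other side of Fbxo44, had a log2FC of 0.24 and 0.12 (SE 0.12 and 0.10). Ube4b, which extends ubiquitin chains, lies on the telomeric side and had a log2FC of -0.30 under NX/NG (SE 0.08, limma FDR = 0.407) and -0.25 after OGD-R (SE 0.11), with no overlap in either. Klhl21, an adaptor of cullin ligases, stood at -0.01 and -0.06. Spsb1, another adaptor, stood at -0.03 and -0.28.

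Of the 8 members tied to motors, vesicles and the cytoskeleton, Miip and Clstn1 stood at an unadjusted p under 0.05 in both environments. None of the other 6 did in either, beside 8.39% of all genes under NX/NG and 3.42% after OGD-R. Miip (chr4:147860778-147868816, minus strand, 1.26 Mb from Cort) encodes a protein that inhibits cell migration. It measured 2.37 and 1.5 RPKM in Cort-/- and 3.26, 3.58 and 3.70 RPKM in Cort+/+ BECs under NX/NG. After OGD-R it measured 1.85 and 2.12 RPKM in Cort-/- and 4.67, 4.56 and 4.22 RPKM in Cort+/+ BECs. The Cort-/- libraries were lower throughout, with a log2FC of -0.86 (SE 0.21, limma FDR = 0.380) and -1.14 (SE 0.13, limma FDR = 0.222). Mfn2, which fuses mitochondria and ends 4.78 kb before the start of Miip on the same strand, had a log2FC of -0.14 and -0.10 (SE 0.09 and 0.12).

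Clstn1 (chr4:149586468-149648899, plus strand, 0.46 Mb from Cort) encodes calsyntenin 1, a membrane protein that links cargo to kinesin. It measured 35.7 and 33.4 RPKM in Cort-/- and 23.1, 28.4 and 22.1 RPKM in Cort+/+ BECs under NX/NG. After OGD-R the values were 41.4 and 37.4 RPKM in Cort-/- and 26.2, 28.4 and 25.8 RPKM in Cort+/+ BECs. Both Cort-/- libraries were the highest of the 5 in each environment, and the log2FC was 0.50 (SE 0.12, limma FDR = 0.382) and 0.55 (SE 0.09, limma FDR = 0.436). Pik3cd, a catalytic subunit of phosphoinositide 3-kinase whose end lies 268 bases from that of Clstn1 on the other strand, reached only 0.138 to 0.465 RPKM, with a log2FC of -0.17 and -0.48 (SE 0.35 and 0.44). The kinesin Kif1b differed least among those of its group of at least 1 RPKM, by 0.03 and 0.11 on the log2 scale.

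The 15 members that act in chromatin, transcription or nucleic acid maintenance include Dffa and Cenps, on either side of Cort. At an unadjusted p under 0.05 stood 2 of the 15 under NX/NG, both higher, and 4 after OGD-R, 3 higher and 1 lower. Over all genes these shares were 8.39% and 3.42%. Dffa (chr4:149104146-149120647, plus strand) ends 4.39 kb from Cort and encodes the inhibitor and chaperone of the caspase-activated DNase. It measured 7.98 and 9.13 RPKM in Cort-/- and 5.0, 6.08 and 5.54 RPKM in Cort+/+ BECs under NX/NG. Its values after OGD-R were 9.18 and 7.68 RPKM in Cort-/- and 5.70, 6.13 and 5.34 RPKM in Cort+/+ BECs. Every Cort-/- library was higher than every Cort+/+ one, with a log2FC of 0.62 (SE 0.11, limma FDR = 0.263) and 0.55 (SE 0.12, limma FDR = 0.705).

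Cenps (chr4:149127121-149137629, minus strand) encodes a histone-fold protein of the centromere and lies 357 bases from Cort. It measured 1.82 and 1.40 RPKM in Cort-/- and 1.62, 1.79 and 1.41 RPKM in Cort+/+ BECs under NX/NG, with interleaved values. After OGD-R it measured 2.23 and 3.19 RPKM in Cort-/- and 1.49, 1.65 and 1.58 RPKM in Cort+/+ BECs, higher without overlap. The log2FC after OGD-R was 0.73 (SE 0.21, limma FDR = 0.978), and it was 0.44 without both libraries low in ribosomal RNA. The higher Cort-/- value came from one of those libraries.

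Neither of the next neighbours outward was apart in both environments. Pex14, whose product docks the peroxisomal import receptor, measured 3.82 and 3.85 RPKM in Cort-/- and 4.63, 4.55 and 3.99 RPKM in Cort+/+ BECs under NX/NG. Its values after OGD-R were 4.65 and 4.58 RPKM in Cort-/- and 4.70, 5.14 and 4.11 RPKM in Cort+/+ BECs. Its log2FC was -0.19 (95% interval -0.43 to 0.05) and -0.01 (95% interval -0.34 to 0.33). Pgd, an enzyme of the pentose phosphate pathway, measured 28.5 and 25.4 RPKM in Cort-/- and 28.0, 26.1 and 24.8 RPKM in Cort+/+ BECs under NX/NG. After OGD-R it measured 25.5 and 31.2 RPKM in Cort-/- and 30.1, 28.0 and 24.4 RPKM in Cort+/+ BECs. The groups overlapped in both environments, with a log2FC of 0.03 (95% interval -0.17 to 0.24) and 0.04 (95% interval -0.30 to 0.39). Thus, of the 4 genes nearest to Cort, only Dffa was apart in both environments.

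Of the 8 metabolic enzymes of the region, none stood at an unadjusted p under 0.05 in either environment, where 8.39% and 3.42% of all genes did. The median log2FC of these 8 was -0.04 and 0.04. Plod1, a collagen lysyl hydroxylase, differed most among those of at least 1 RPKM, by 0.16 and 0.24 (SE 0.09 and 0.12). Park7, which encodes the oxidative stress protein DJ-1, differed least, by -0.02 and 0.04 (SE 0.07 and 0.15). Dhrs3, a retinaldehyde reductase 4.2 Mb from Cort, had a log2FC of -1.21 and -0.67, but at 0.215 to 1.73 RPKM its SE was 0.57 and 0.36. None of the 6 members of mitochondria, peroxisomes and solute transport passed that p either, and the log2FC of the group lay between -0.19 and 0.10.

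Of the 8 members in signalling and transport, Agtrap, a partner of the angiotensin II type 1 receptor, stood at an unadjusted p under 0.05 in both environments. It measured 7.47 and 8.32 RPKM in Cort-/- and 8.76, 9.31 and 9.66 RPKM in Cort+/+ BECs under NX/NG. Its values after OGD-R were 8.79 and 7.35 RPKM in Cort-/- and 9.57, 9.63 and 10.5 RPKM in Cort+/+ BECs. The groups did not overlap, but the shift was small, with a log2FC of -0.23 (SE 0.08, limma FDR = 0.541) and -0.30 (SE 0.11, limma FDR = 0.978). Ctnnbip1, an inhibitor of β-catenin, had a log2FC of 0.32 (SE 0.10) and 0.14 (SE 0.12), and 25.8% of its exon bases also lie in a gene on the other strand. Mtor, the growth kinase, had a log2FC of -0.11 and 0.10. Masp2, a complement protease, stood at -0.03 and 0.10, but 54.9% of its exon bases overlap Tardbp on the other strand. The library kit keeps strand, and whether counting used it is not given in the sources used here. Rbp7, a retinol-binding protein, had 1 read in each genotype after OGD-R and was not analysed here under NX/NG.

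Among the remaining genes of the chromatin group, Lzic had a log2FC of -0.11 and -0.25 (SE 0.06 and 0.08), and the latter stood at an unadjusted p under 0.05. Nmnat1, an enzyme of NAD synthesis that starts 26 bases from Lzic in the opposite direction, stood at 0.05 and 0.06 (SE 0.17 and 0.13). The RNA-binding protein gene Tardbp stood at -0.03 and -0.11, and Thap3 at -0.10 and -0.00. Casz1, a zinc finger gene expressed at no more than 0.120 RPKM, stood at -0.14 and -0.33 (SE 0.25 and 0.30).

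Most of the larger differences lay on the centromeric side. Of the 23 on the centromeric side, 8 had a log2FC of at least 0.5 in size under NX/NG and 9 after OGD-R, with a median size of 0.19 and 0.24. On the telomeric side these were 2 of 31 and 3 of 32, with a median size of 0.08 and 0.13. Of all members 18.5% and 21.8% reached a size of 0.5, against 20.2% and 18.1% of genes on other chromosomes. Among genes of at least 1 RPKM in at least 2 libraries these shares were 18.2% and 22.2% of members, against 10.2% and 7.26%. No test was made of the contrast between the sides, and the centromeric members reach farther from Cort. Efhd2, the farthest member, had a log2FC of 0.18 and 0.22 (SE 0.08 and 0.15). Between Efhd2 and Pdpn, Kazn and Prdm2 stood at -0.10 and 0.02 under NX/NG and at 0.02 and -0.01 after OGD-R.

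The genotype comparisons of the 2 environments share no library, and whether same-numbered cultures came from 1 pool of cells is not given in the sources used here. In both, with the same sign, 8 of 54 members (14.8%) stood at an unadjusted p under 0.05, where 0.992% of the 27321 genes in both tables did. They were Pdpn, Tnfrsf1b, Zfp990, Miip, Agtrap, Fbxo44, Dffa and Clstn1. The genotypes did not overlap in either environment, with the same sign, for 14 members (25.9%, against 4.6% of all genes). For 9 of these the log2FC was also at least 0.5 in size in each (16.7%, against 1.04%). The sign was the same for 42 members (77.8%, against 60.1%). Across the 54 members Pearson's r between both sets of log2FC was 0.95 and Spearman's rho 0.78, and without Pdpn, Tnfrsf1b, Zfp990 and Fbxo44 they were 0.77 and 0.72. Over 13789 genes of at least 1 RPKM they were 0.24 and 0.45. Genes are not independent replicates, and the libraries of a genotype come from 1 mouse line in both environments.

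**Figure D3:**
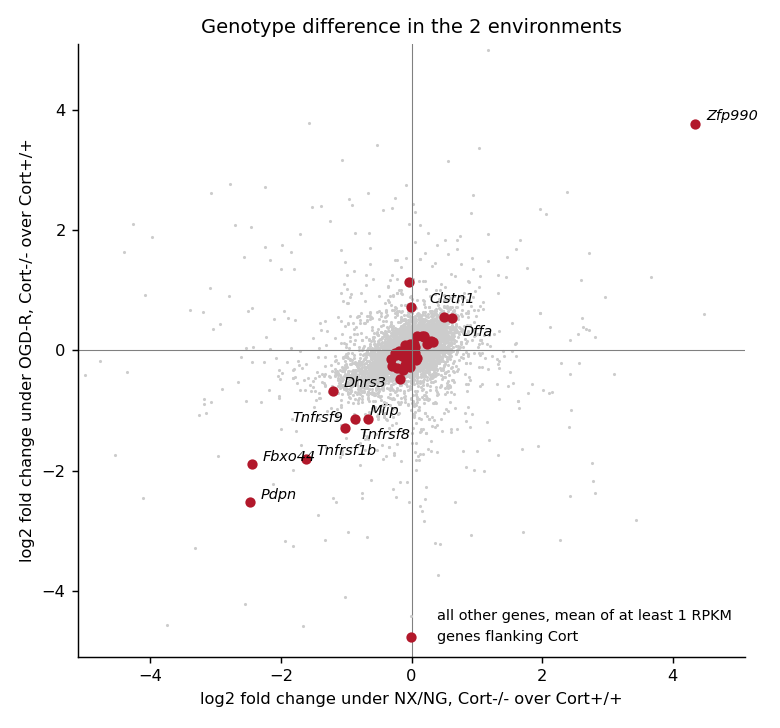
Log2FC (Cort-/- over Cort+/+) after OGD-R (vertical axis) against that under NX/NG (horizontal axis) for the 54 flanking genes in both tables (red) and for the other genes of at least 1 RPKM on average (grey, values past 5 in size drawn at 5). Named genes have a log2FC of at least 0.5 in size in both environments and lie along the diagonal, from Pdpn at the lower left to Zfp990 at the upper right.

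Genes near Cort that are not members were set beside these. Of 271 such genes within 10 Mb under NX/NG, 34 (12.5%) stood at an unadjusted p under 0.05, as did 8.03% of the genes of chromosome 4 beyond 10 Mb and 8.40% of those on other chromosomes. After OGD-R these were 22 of 272 (8.09%), 3.03% and 3.28%. Among genes of at least 1 RPKM in at least 2 libraries, members and others together, 18 of 57 (31.6%) within 2.5 Mb stood at that p under NX/NG, 4 of 24 (16.7%) at 2.5 to 5 Mb and 10 of 83 (12.0%) at 5 to 10 Mb and 25 of 151 (16.6%) at 10 to 20 Mb, with 13.4% on other chromosomes. After OGD-R the shares were 22%, 17.4%, 5.95% and 5.23%, with 3.65% on other chromosomes. The bins are a description with no test, and genes within a bin share the same libraries.

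**Figure D4:**
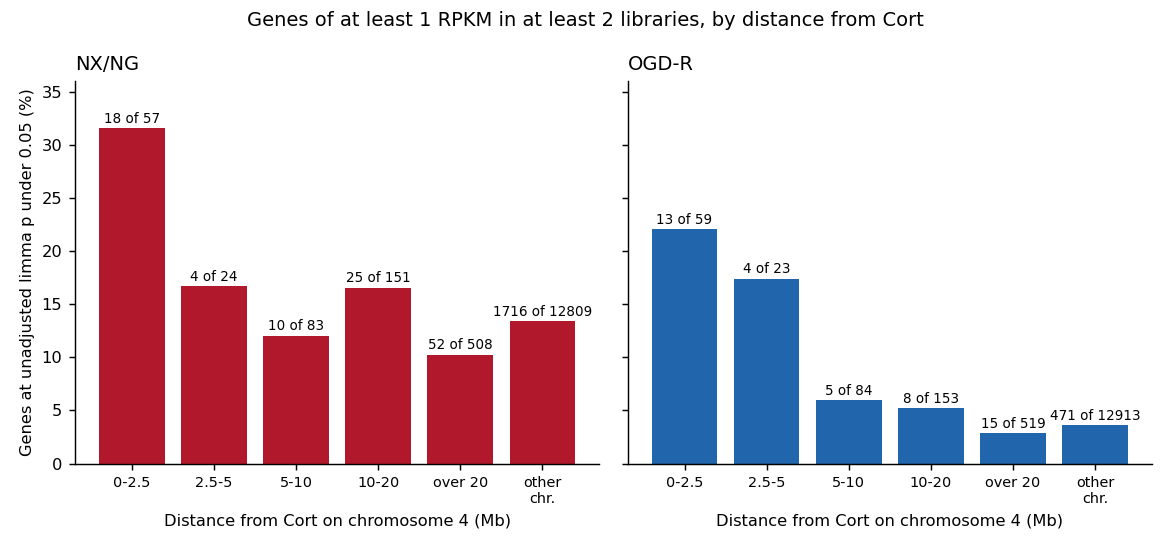
Share of genes at an unadjusted limma p under 0.05 between genotypes (vertical axis, percent) in bins of distance from Cort and on other chromosomes (horizontal axis) under NX/NG (left) and OGD-R (right), with counts above the bars. Only genes of at least 1 RPKM in at least 2 libraries enter, and the bar within 2.5 Mb is the highest in each panel, at 31.6% and 22%.

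In Cort+/+ BECs, 3 of 54 members stood at an unadjusted p under 0.05 between OGD-R and NX/NG, where 5.48% of all genes did, and all 3 were higher after OGD-R. They were Plod1 (log2FC 0.35, SE 0.09, limma FDR = 0.862), Miip (0.27, SE 0.09) and Lzic (0.14, SE 0.05). In Cort-/- BECs only Plod1 did (0.42, SE 0.11, limma FDR = 0.922), where 4.08% of all genes did. The environments did not overlap for 4 of 54 members in Cort+/+ BECs (7.41%, against 10.2% of all genes) and for 15 of 54 in Cort-/- BECs (27.8%, against 30.3%). Without Cort+/+ NX/NG replicate 1 or 2 the first count was 1. Without either Cort-/- NX/NG library the second was 0, and without Cort-/- OGD-R replicate 1 it was 8, where 13.8% of all genes stood at that p. Pdpn differed between environments by 0.11 (SE 0.14) in Cort+/+ and 0.06 (SE 0.30) in Cort-/- BECs. In the test of the interaction, 1 of 54 members stood at an unadjusted p under 0.05, where 2.85% of all genes did. It was Cenps (0.72, SE 0.28, limma FDR = 1.00), which stood at 0.44 and no longer at that p without both libraries low in ribosomal RNA. Pdpn stood at -0.05 (SE 0.32). None of the members passed an FDR of 0.05 in any of these 3 comparisons, where limma called 0.0332% of all genes in Cort+/+ BECs, 0% in Cort-/- BECs and 0.011% for the interaction, and limma-voom 0.00369%, 0% and 0%.

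The other marker lists were also summed. Leptomeningeal markers were 7.24 to 8.05 RPKM in Cort-/- and 7.23 to 8.92 RPKM in Cort+/+ BECs under NX/NG, and pericyte markers 0.958 to 1.51 against 3.83 to 4.41 RPKM. After OGD-R these were 6.16 to 6.31 against 7.05 to 8.95 RPKM and 3.78 to 4.83 against 4.95 to 5.59 RPKM. The log2FC under NX/NG and after OGD-R was -0.57 and -0.35 for Foxc1, -0.97 and -0.90 for Aldh1a2. It was 0.97 and 0.26 for Ptgds, and 0.17 and -0.05 for Slc6a13, at most 0.0576 RPKM. Of the pericyte markers, Cspg4 stood at -1.91 and -0.19, Vtn at -0.14 and -1.32 and Kcnj8 at -0.07 and -0.27. Vtn did not exceed 0.574 RPKM and Kcnj8 did not exceed 0.0353 RPKM. Smooth muscle markers summed to 637 to 1098 RPKM over the 10 libraries, of which Acta2 made 630 to 1080 RPKM. Epithelial markers summed to 4.48 to 13.7 RPKM in Cort-/- and 3.88 to 49.6 RPKM in Cort+/+ BECs under NX/NG. After OGD-R these sums were 8.81 to 37.0 against 1.43 to 7.45 RPKM, with no overlap and 1 of 4 higher at an unadjusted p under 0.05. That marker was Krt18, at 8.67 and 20.9 RPKM in Cort-/- and at most 7.04 RPKM in Cort+/+ BECs. In 1 of the Cort-/- libraries Krt8, Epcam and Cdh1 measured only 0.0749, 0 and 0.0641 RPKM. The other held 11.9, 1.40 and 2.80 RPKM of them, so most of the excess beyond Krt18 came from 1 pool. Choroid plexus epithelial, astrocyte, oligodendrocyte and neuronal sums stayed at or below 1.2 RPKM. The part of these cells in the results was not tested.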

How the data were processed

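RNA-seq was deposited for primary BECs in 2 tables, 1 per environment, in RPKM per gene as computed by the authors with their reanalyzerGSE pipeline (the submitters' processing notes name edgeR), beside the deposited gene length, another value. Aligner, annotation, genome build and the use of strand in counting are not given in the sources used here. Labels and methods differ on kit, RNA input and read length. The authors' own fold changes, p-values, FDR, means and 10 category columns were not used. RPKM times length lay within 0.05 of whole multiples of 1 step for 100% of values, which gave the reads. Their near-equal totals have no stated reason, and depth limits genes under about 3 reads.

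The 5 libraries of an environment were fitted with limma 3.58.1 in R 4.3.3 on log2(RPKM + 0.1), over all genes above 0 (empirical Bayes with a trend), with Benjamini-Hochberg adjustment over all genes and calls at an FDR of at most 0.05. Cort+/+ OGD-R replicate 1, which the paper's heatmaps leave out, was kept. Interaction and environment comparisons used RPKM recomputed from reads over the 27321 genes common to both tables, after joint TMM scaling (trimmed mean of M values). Exact intervals came from scipy. The fits were tested on simulated data. Positions are GENCODE vM21 (GRCm38), matched by symbol. Alternatives were a pseudocount of 1, quantile normalization, genes that reach 1 RPKM in at least 2 libraries, limma-voom, a replicate block, all groups in one fit, libraries low in ribosomal RNA left out and each library left out. P-values measure the spread between pools of 3 mice.

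Members, roles and marker lists were chosen with earlier results of these data known. Members were given per library where genotypes were apart with a log2FC of at least 0.5 in size in both environments, where called, or as the nearest 2 to Cort on each side. Fbxo2, Agtrap and other neighbours were added after values were seen. The replicate numbers were not taken to pair samples.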

Additional observations from a re-analysis of the deposited data

How the results depend on the processing

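Under NX/NG the members at an unadjusted p under 0.05 numbered 10, and 8 to 14 with each library left out. After OGD-R they numbered 12, and 9 to 12 with each library left out, but 7 without both libraries low in ribosomal RNA. The share of all genes after OGD-R went from 3.42% to 11.1% without those 2 and lay between 3.41% and 9.43% with each left out. No member was called by limma, against 3 by limma-voom in each environment. With all 4 groups in one fit 2 were called under NX/NG and 3 after OGD-R, and with a pseudocount of 1 one of them, Zfp990, was called under NX/NG. With each library left out 0 to 2 were called under NX/NG, 2 without Cort-/- NX/NG replicate 1 and 1 without replicate 2, where 543 and 683 of all genes were called. After OGD-R 710 and 626 of all genes were called without Cort-/- replicate 1 or 3, with no member among them. Where a group kept 1 library, it was assumed to vary like the other group. Between environments, leaving out each library gave 1 to 4 members in Cort+/+ and 0 to 8 in Cort-/- BECs, where limma-voom gave 2. The cause was not tested.

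The replicate numbers were not taken to pair the samples. Deviations of same-numbered libraries of both genotypes correlated at -0.04 and -0.05 under NX/NG and at -0.44 and -0.29 after OGD-R. Across environments they correlated at -0.03, -0.06 and 0.11 in Cort+/+ and at -0.13 in Cort-/- BECs. With 2 Cort-/- libraries an environment, their deviations are equal and opposite, so these values cannot decide whether the numbers pair samples. After OGD-R the 2 libraries low in ribosomal RNA, Cort-/- replicate 3 and Cort+/+ replicate 1, correlated at 0.44. The replicate block gave 12 members at an unadjusted p under 0.05 under NX/NG, 6 after OGD-R and 2 between environments in Cort+/+, with no call, beside 9.18%, 2.64% and 5.23% of all genes. For Cort-/- between environments it could not be fitted, since no residual degrees of freedom remained.

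Of all genes within 10 Mb, 13.5% stood at that p under NX/NG and 10.4% after OGD-R. Within 5 Mb these were 18.1% and 14.4%, and 19.5% within 10 Mb under NX/NG among genes of at least 1 RPKM in at least 2 libraries. Of 366 recomputed log2FC of named members between genotypes, 19 changed sign, and all 19 belong to values of at most 0.14 in size. A kept sign does not mean a kept unadjusted p under 0.05. Agtrap after OGD-R stood at an unadjusted p of 0.0588 by limma-voom. Between environments larger values also changed sign, as Tnfrsf8 (-0.30 in Cort-/- BECs, up to 0.10) and Zfp990 (-0.34, up to 0.24). Pgd under NX/NG went to -0.0081 with the replicate block and between -0.048 and 0.12 with each library left out, and after OGD-R to -0.034 without both libraries low in ribosomal RNA and between -0.10 and 0.19 with each left out. Cenps under NX/NG went to 0.00023 with a pseudocount of 1, 0.050 with quantile normalization, 0.0047 with all groups in one fit and between -0.18 and 0.18 with each library left out. Pex14 after OGD-R went to 0.017 with quantile normalization, 0.069 with the block, 0.016 without both libraries low in ribosomal RNA and between -0.090 and 0.069 with each left out. Ctnnbip1 after OGD-R lay between -0.018 and 0.29 with each left out. Depth limits Tnfrsf9, Rbp7, Slc45a1 and Cort, at or under 3 reads in all libraries of a genotype.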

Other observations

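Between Zfp990 and Miip lies a stretch of zinc finger genes that are not members of the list described above. Within 10 Mb of Cort, 12 of 248 genes outside the list (4.84%, against 0.992% of all genes) stood at an unadjusted limma p under 0.05 with the same sign in both environments. Among them were Znf41-ps, Zfp993, Gm21411, Zfp991, Zfp982, Zfp985, Zfp534, Zfp984, Nppb, Clcn6 and Mir7658. Zfp993 (log2FC -2.40 under NX/NG and -1.56 after OGD-R), Zfp982 (-2.19 and -1.81), Zfp991 (-1.26 and -1.37) and Zfp984 (-0.61 and -0.97) were lower in Cort-/- BECs, and Zfp985 (1.26 and 1.03) and Gm21411 (1.97 and 1.76) were higher. Genes of this family share long stretches of sequence, so reads may be split between copies, and most were under 1 RPKM.

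Closer to Cort, Clcn6, a late endosomal chloride transporter, was higher in Cort-/- BECs, with a log2FC of 0.63 (SE 0.10) under NX/NG and 0.65 (SE 0.18) after OGD-R. Nppb, the gene of brain natriuretic peptide, was lower, at -0.72 (SE 0.09) and -1.66 (SE 0.31). Neither was called by limma at an FDR of 0.05.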
